A study of Mus musculus with 46 samples.

Results

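The RNA of 9 mouse livers was compared between diets: 5 control livers on the diet labelled HFD, read here as high-fat diet, and 4 control livers on the diet labelled NCD, read here as normal chow. They were all the control columns of the liver tables and make up 9 of the 46 libraries of the series. The series studies Falcor (9030622O22Rik), a long noncoding RNA encoded next to Foxa2, in mouse livers and in a hepatocyte cell line. The control livers carry the label Ctrl, in a field that names Falcor for the knockout livers. The labels do not give the strain, sex, age, weeks on diet, feeding state, hour of sampling or which alleles the controls carry, and do not say whether each library is a separate animal. Per the labels' protocols, ribosomal RNA was removed and the libraries kept strand. As a second look, the same contrast was made in 6 HFD and 4 NCD livers labelled Falcor KO.

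The diets stand in separate tables that were made separately, so diet, table and any batch cannot be told apart, and no p-value was computed between them. A gene was called separated when its lowest library on one diet lay above its highest library on the other and the mean log2(value + 1) differed by at least 1. The deposited values are whole numbers whose unit is not stated, so the depth behind them is unknown. Each library was rescaled by its median ratio to the other libraries over the shared genes. All gene values are on that rescaled scale, and a deposited value of 1 equals 0.975 to 1.69 in HFD livers and 0.622 to 0.725 in NCD livers. Values per library are listed in the order Ctrl-1, Ctrl-2, Ctrl-4, Ctrl-5 and Ctrl-6 for HFD, and Ctrl-2, Ctrl-3, Ctrl-4 and Ctrl-5 for NCD. Means carry the SD, with n = 5 for HFD and n = 4 for NCD. A difference is the mean log2(value + 1) of HFD livers minus that of NCD livers.

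The tables differed in composition before any gene was compared. A set of 3 genes with identical values took 22.4 to 56.8% of the HFD columns and 6.50 to 12.9% of the NCD columns, and was set aside. The 15 mitochondrially encoded RNAs took 5.27 to 6.59% of what remained in HFD columns and 1.73 to 2.25% in NCD columns. HFD columns listed 11759 to 13845 genes above 0, and NCD columns 16064 to 16418. Pairs of libraries correlated at 0.912 to 0.958 within HFD, 0.944 to 0.971 within NCD and 0.858 to 0.906 across diets, over log2 values. The first principal component, with 47.1% of the variance, placed all HFD livers on one side. The second, with 14.9%, set HFD Ctrl-5 and Ctrl-6 apart from HFD Ctrl-1, Ctrl-2 and Ctrl-4.

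**Figure D1:**
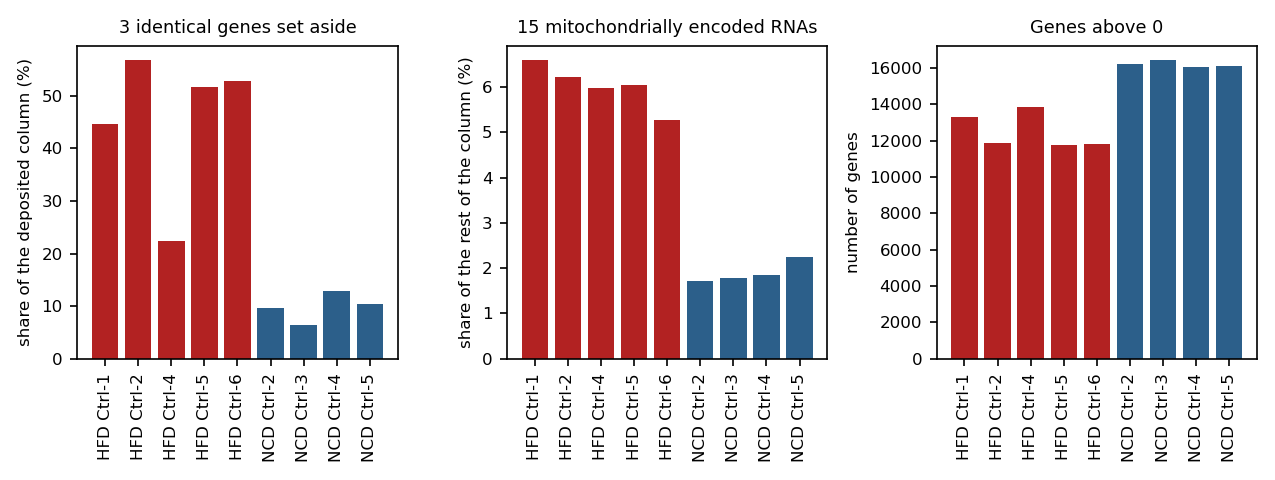
Composition of the 9 control columns, with HFD in red and NCD in blue. The bars show the share of the 3 genes set aside in percent, the share of the 15 mitochondrially encoded RNAs in the rest in percent, and the number of genes above 0. All 5 HFD columns lie above all 4 NCD columns in the first and second panel, and below them in the third.

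The liver burns, makes, stores and exports fat. Fatty acids that reach it activate the nuclear receptor PPAR alpha, which turns on genes of fatty acid uptake, binding and oxidation in microsomes, peroxisomes and mitochondria. Synthesis of fatty acids from sugar is driven by SREBP-1c and ChREBP, which respond to insulin and carbohydrate, while glucagon, glucocorticoids and low insulin favour gluconeogenesis and amino acid breakdown.

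Of 7371 genes measured, 230 were separated higher (3.12%) and 132 separated lower (1.79%) in HFD livers. Without the size limit, 15.6% lay above and 14.5% below the NCD range in all HFD livers. The median difference over all genes was -0.01 (log2). With a minimum mean of 10 in place of 3 there were 157 and 67. On within-library ranks, 218 of the 230 and 130 of the 132 still did not overlap. Over all 7371 genes, 1022 lay higher and 1206 lower without overlap on ranks. The 230 and 132 were chosen for no overlap on values, which favours no overlap on ranks. The split depended on the scaling: dividing by the sum of the shared genes gave 134 higher and 814 lower, and no rescaling gave 47 higher and 3363 lower. Among 6425 protein coding genes, 135 were separated higher and 63 lower.

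Fatty acid oxidation genes stood higher in HFD livers. Of 25 measured members of the list of fatty acid oxidation and PPAR alpha targets, 7 were separated higher and 0 lower, 19 lay above the NCD range at any size, and the median difference was 0.71. The separated members were Cyp4a14, Vnn1, Cyp4a10, Angptl4, Fabp1, Cpt1a and Pex11a. Cyp4a14, a microsomal omega-hydroxylase of fatty acids at chr4:115486200-115496142, minus strand, had rescaled values of 286, 133, 153, 137 and 60.6 in HFD livers, against 24.7, 12.4, 6.47 and 26.7 in NCD livers. HFD Ctrl-1 was the highest and HFD Ctrl-6 the lowest of the HFD livers, and the diets did not overlap, with a ratio of means of 8.78. Cyp4a10, a close relative of the same function, reached 207, 128, 188, 160.4 and 95.1 in HFD livers, against 40.6, 26.7, 18.8 and 62.3 in NCD livers. It kept the same order, with HFD Ctrl-1 at the top and HFD Ctrl-6 at the bottom of the HFD livers. Cyp4a genes are near-identical copies, and how reads were divided among them is not given, so each single value is uncertain.

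Vnn1, a pantetheinase and a classic target of PPAR alpha, had 29, 30.4, 25.4, 24.8 and 13.1 in HFD livers, against 4.35, 3.73, 3.88 and 3.18 in NCD livers, a ratio of 6.48. Angptl4, a secreted inhibitor of lipoprotein lipase, had 13.3, 18.6, 21.5, 13.2 and 19.7 in HFD livers, against 5.08, 3.73, 3.24 and 5.72 in NCD livers, and its lowest HFD liver was above its highest NCD liver. Cpt1a, which admits long-chain fatty acids to mitochondria, had 115, 106, 102, 101 and 90.2 in HFD livers, against 45, 39.8, 47.9 and 42.6 in NCD livers. Its HFD livers lay close together and well above the tight NCD group, at 103 ± 8.96 in HFD livers and 43.8 ± 3.45 in NCD livers. Fabp1, the liver fatty acid binding protein, had 1355, 1087, 964, 1289.5 and 1038 in HFD livers, against 469, 422, 486 and 479 in NCD livers, and the diets were separated by a ratio of 2.47. Pex11a, which divides peroxisomes, differed by 1.05 (log2), and by 0.96 without HFD Ctrl-5 and 0.98 without NCD Ctrl-4. When libraries were divided by the sum of the shared genes, Cpt1a, Fabp1 and Pex11a were no longer separated. Members that did not reach the size limit but lay above the NCD range included Ppara itself (0.93) and Acadm of medium-chain oxidation (0.58).

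The Fabp1 promoter is shown because Fabp1 is 1 of the 2 separated genes whose promoter held a relaxed form of the element that PPAR alpha binds, a direct repeat of AGGNCA with 1 base between the copies, on either strand. It spans chr6:71199629-71199928 on the plus strand (RefSeq, GRCm38.p6), from 250 bases before to 50 bases after the gene's start. Capitals mark the match, which begins 67 bases before the start and reads on the opposite strand.
Fabp1: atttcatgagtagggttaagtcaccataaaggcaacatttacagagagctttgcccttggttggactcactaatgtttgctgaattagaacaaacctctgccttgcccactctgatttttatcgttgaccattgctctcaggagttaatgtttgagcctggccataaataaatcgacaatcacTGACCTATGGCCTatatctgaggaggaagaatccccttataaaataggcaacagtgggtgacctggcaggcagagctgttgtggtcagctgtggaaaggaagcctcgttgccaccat
This form was chosen after values were seen. The other holder was Apoc2. Promoters were found for 5310 of the measured genes, and 0.414% of them held the relaxed form, against 1.79% of 112 promoters of genes separated higher and 0 of 60 of genes separated lower. The strict form, the same repeat of AGGTCA, was in 3 of the 5310 promoters and in 0 of either group. A match describes letters in this window and is not a measured binding site.

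Genes of lipid droplets and fatty acid uptake followed in the list of PPAR gamma and lipid droplet genes: 4 of 14 measured members were separated higher, 0 lower, and the median was 0.55. Cd36, a fatty acid transporter at chr5:17781690-17888801, minus strand, had 35.1, 23.6, 19.5, 23.1 and 14.8 in HFD livers, against 5.08, 3.11, 2.59 and 6.99 in NCD livers. The lowest HFD liver, Ctrl-6, was still above the highest NCD liver, Ctrl-5, and the means were 23.2 ± 7.51 in HFD livers and 4.44 ± 2.01 in NCD livers. Cidec, which fuses lipid droplets, had 14.5, 13.5, 1.95, 9.92 and 3.28 in HFD livers, against 0.725, 0.622, 0.647 and 1.91 in NCD livers. HFD Ctrl-4 lay next to the top NCD liver, whose values are 1 to 3 deposited units, so this ratio rests on coarse values. Plin4, a droplet coat protein, had 4.83, 8.44, 2.93, 6.61 and 3.28 in HFD livers, against 1.45, 1.24, 1.29 and 1.91 in NCD livers, also at a few deposited units. Pnpla2, the triglyceride lipase ATGL, differed by 1.10, and by 0.97 without HFD Ctrl-6. Plin2, the main droplet coat protein of hepatocytes, overlapped, with 228, 182, 126, 131 and 102 in HFD livers, against 90.7, 96.4, 106 and 116 in NCD livers: HFD Ctrl-1 and Ctrl-2 were highest and HFD Ctrl-6 lay within the NCD range. Pparg also overlapped (0.67). Without HFD Ctrl-5 and Ctrl-6 the list median was 0.78 over the members still measured. Cidec and Plin4 passed the minimum mean of 3 through the HFD livers, and with a minimum mean of 10 Cd36 alone of the 4 separated members remained. Of 6 adipocyte markers 4 were at 0 in every liver and 1 was measured, Cfd, a secreted serine protease, with 8.46, 11.8, 2.93, 8.27 and 1.64 in HFD livers, against 0, 0, 0.647 and 3.81 in NCD livers, which overlapped. The summed adipocyte markers were 1.64 to 11.8 in HFD livers and 0 to 4.45 in NCD livers, and their part in these differences was not tested.

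**Figure D2:**
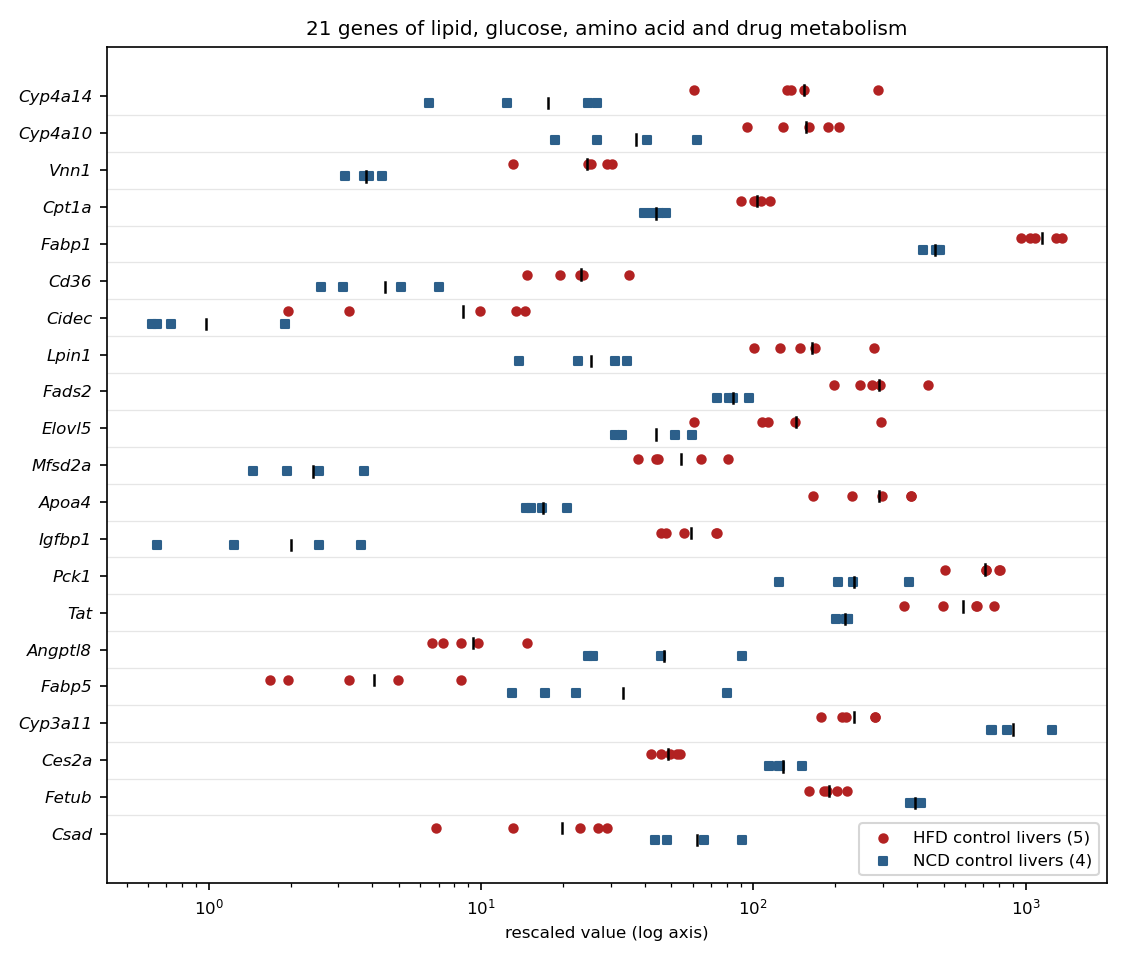
Rescaled values of 21 genes in each control liver on a log axis, with HFD livers as red circles above NCD livers as blue squares and black ticks at the means. The first 15 genes lie higher in HFD livers and the last 6, from Angptl8 to Csad, lie lower, without overlap.

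Triglyceride assembly was led by the lipins, phosphatidate phosphatases that make diacylglycerol. Lpin1, at chr12:16535669-16610966, minus strand, had 126, 149, 100.4, 169 and 279 in HFD livers, against 13.8, 31.1, 22.7 and 34.3 in NCD livers. All HFD livers lay at least at 100.4, with HFD Ctrl-6 highest, and no NCD liver passed 34.3. Lpin2 had 83.4, 69.2, 66.3, 86 and 67.2 in HFD livers, against 21.8, 25.5, 21.4 and 36.2 in NCD livers, again without overlap. Of the 11 measured genes of triglyceride synthesis and VLDL these 2 were separated higher and 0 lower, with a list median of 0.31. Apob, the structural protein of VLDL, lay above the NCD range at a smaller size, 779 ± 43.4 in HFD livers and 469 ± 63.5 in NCD livers, as did Mttp, which loads it with lipid (0.31).

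Fatty acid synthesis split by branch. The separated members were 3 enzymes of polyunsaturated fatty acids: Fads2, the delta-6 desaturase, and the elongases Elovl5 and Elovl2. Fads2 had 440.0, 246, 273, 291 and 198 in HFD livers, against 81.2, 84.5, 96.4 and 73.7 in NCD livers. HFD Ctrl-1 was highest, the NCD group was tight, and the ratio of means was 3.45. Elovl5 had 294, 142, 113, 107 and 60.6 in HFD livers, against 31.2, 32.9, 51.8 and 59.7 in NCD livers, where HFD Ctrl-6 came within a few percent of NCD Ctrl-5, and on within-library ranks Elovl5 overlapped. Elovl2 differed by 1.38 and Fads1, the delta-5 desaturase, by 0.69, where Fads1 did not overlap but stayed under the size limit. Enzymes of the route from sugar did not separate. Scd1, the delta-9 desaturase, had 2598, 447, 542, 693 and 269 in HFD livers, against 376, 773, 1060.2 and 1243 in NCD livers, and Fasn, fatty acid synthase, had 303, 77.6, 74.1, 95.9 and 36.1 in HFD livers, against 87, 170.3, 157 and 89.6 in NCD livers. In both, HFD Ctrl-1 stood far above every other liver, while the other 4 HFD livers lay within or below the NCD range. Their regulator Srebf1 overlapped (-0.29), and Mlxipl, which encodes ChREBP, lay below the NCD range in all HFD livers, at 26 ± 1.81 in HFD livers and 43.7 ± 3.2 in NCD livers (-0.73). The list as a whole had 3 separated higher, 0 lower and a median of -0.05 over 17 members.

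Cholesterol synthesis showed 1 separated gene of 20, Msmo1, a sterol C4 oxidase, with 65.3, 48.9, 29.3, 47.9 and 24.6 in HFD livers, against 10.9, 14.9, 23.9 and 19.1 in NCD livers. HFD Ctrl-6 was close to NCD Ctrl-4, and on ranks the diets overlapped. The list median was 0.31. Hmgcs1, an early enzyme of the pathway, had 245, 147, 58.5, 101 and 37.7 in HFD livers, against 23.2, 63.4, 105 and 45.8 in NCD livers: HFD Ctrl-1 and Ctrl-2 lay above all NCD livers, and the other 3 HFD livers lay in the NCD range. In bile acid metabolism 1 of 22 measured genes was separated, Abcb4, the canalicular phospholipid exporter, with 48.3, 50.6, 42.9, 43 and 39.3 in HFD livers, against 18.1, 18, 16.8 and 19.7 in NCD livers. Cyp7a1, the rate-limiting enzyme of bile acid synthesis, had 27.8, 13.5, 35.1, 43 and 13.1 in HFD livers, against 14.5, 6.22, 8.41 and 11.4 in NCD livers, where HFD Ctrl-2 and Ctrl-6 lay within the NCD range. Cyp8b1, which sets the cholic acid share, differed by 0.79 with overlap.

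The gene with the largest difference among named protein coding genes of the nuclear genome was Igfbp1, a secreted IGF binding protein that insulin represses, at chr11:7197782-7202546, plus strand. It had 45.9, 55.7, 47.8, 72.7 and 73.8 in HFD livers, against 3.63, 1.24, 0.647 and 2.54 in NCD livers. The HFD livers were all high, and the NCD livers held 1 to 5 deposited units each, with means of 59.2 ± 13.4 in HFD livers and 2.01 ± 1.33 in NCD livers. Pck1, the cytosolic enzyme that commits carbon to gluconeogenesis, had 508, 714, 805, 799 and 713 in HFD livers, against 125, 233, 205 and 373 in NCD livers. The NCD livers varied about 3-fold, and the lowest HFD liver, Ctrl-1, still exceeded them. G6pc, which releases free glucose, overlapped, with 116, 133, 78, 84.3 and 37.7 in HFD livers, against 42.8, 29.8, 26.5 and 65.5 in NCD livers. Pfkfb1, which sets fructose 2,6-bisphosphate, differed by 1.07 and by 0.98 without NCD Ctrl-3. Over 23 measured genes of glycolysis, gluconeogenesis and glycogen, 3 were separated higher and 0 lower, with a median of 0.21.

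Of the aminotransferases, Tat, Got1 and Gpt2 separated, while Oat (0.59), Gpt (-0.29) and Agxt (-0.12) overlapped. Tat, tyrosine aminotransferase and a glucocorticoid target, had 496, 657, 665, 764 and 359 in HFD livers, against 223, 218, 202 and 224 in NCD livers. The NCD livers lay within a narrow band and every HFD liver was above it, with a ratio of 2.71. Got1, the cytosolic aspartate transaminase, had 90.7, 72.6, 69.2, 61.2 and 88.5 in HFD livers, against 21, 24.9, 28.5 and 52.8 in NCD livers, and Gpt2, the mitochondrial alanine transaminase, 90.7, 79.3, 83.9, 111 and 90.2 in HFD livers, against 35.5, 33.6, 36.9 and 48.3 in NCD livers. In Got1 the highest NCD liver, Ctrl-5, approached the lowest HFD liver. Cps1, the entry enzyme of the urea cycle, did not separate (-0.13). The 28 measured genes of the urea cycle and amino acid breakdown had 3 separated higher, 0 lower and a median of 0.37.

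Other leading genes were lipid transporters and lipoproteins. Mfsd2a, a transporter of lysophosphatidylcholine that carries polyunsaturated fatty acids, at chr4:122946850-122961188, minus strand, had 81, 64.1, 43.9, 44.6 and 37.7 in HFD livers, against 1.45, 3.73, 1.94 and 2.54 in NCD livers. The ranges were more than 10-fold apart. Apoa4, an apolipoprotein of triglyceride-rich particles at chr9:46240696-46243459, plus strand, had 381, 165, 296, 379 and 231 in HFD livers, against 15.2, 16.8, 20.7 and 14.6 in NCD livers, a ratio of 17.3. Apoc2, the cofactor of lipoprotein lipase, had 262, 160.3, 199, 159 and 138 in HFD livers, against 76.2, 67.1, 69.9 and 71.2 in NCD livers, and Apoc3, which inhibits lipoprotein clearance, lay below the NCD range in every HFD liver, with 1197, 1220.3, 1254, 1276 and 1365 in HFD livers, against 1812, 1868, 1789 and 2139 in NCD livers. Fabp2, the intestinal-type fatty acid binding protein, had 71.3, 55.7, 58.5, 46.3 and 39.3 in HFD livers, against 7.98, 7.46, 8.41 and 11.4 in NCD livers. Lipg, endothelial lipase, had 12.3 ± 5.42 in HFD livers and 1.47 ± 0.275 in NCD livers. Rgs16, a brake on G protein signalling, had 29, 47.3, 57.5, 74.4 and 24.6 in HFD livers, against 6.53, 3.73, 1.94 and 1.27 in NCD livers, with HFD Ctrl-1 and Ctrl-6 the lowest of the HFD livers. Of 21 apolipoproteins and plasma carriers, 2 were separated higher and 1 lower, and the most abundant carriers overlapped: Alb at 17409 ± 2401 in HFD livers and 14485 ± 2199 in NCD livers, Ttr (0.16) and Apoa1 (0.23). Apoa2 lay above the NCD range (0.88).

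Secreted regulators went both ways, with 3 separated higher and 3 lower of 23. Angptl8, a secreted, insulin-induced regulator of lipoprotein lipase at chr9:21835510-21837347, plus strand, had 7.25, 8.44, 9.75, 6.61 and 14.8 in HFD livers, against 90.7, 46, 25.9 and 24.8 in NCD livers. The highest HFD liver, Ctrl-6, lay under the lowest NCD liver, Ctrl-5, with a difference of -2.05. Fetub, a hepatokine, had 191 ± 23.1 in HFD livers and 393 ± 15.6 in NCD livers, and its difference of -1.05 was -0.99 without HFD Ctrl-1. Inhba, a subunit of activin, had 1.21, 0, 0.975, 1.65 and 1.64 in HFD livers, against 4.35, 12.4, 11.7 and 3.81 in NCD livers, which in HFD livers is 0 or 1 deposited unit. Igf1 lay above the NCD range at a smaller size (0.59).

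**Figure D3:**
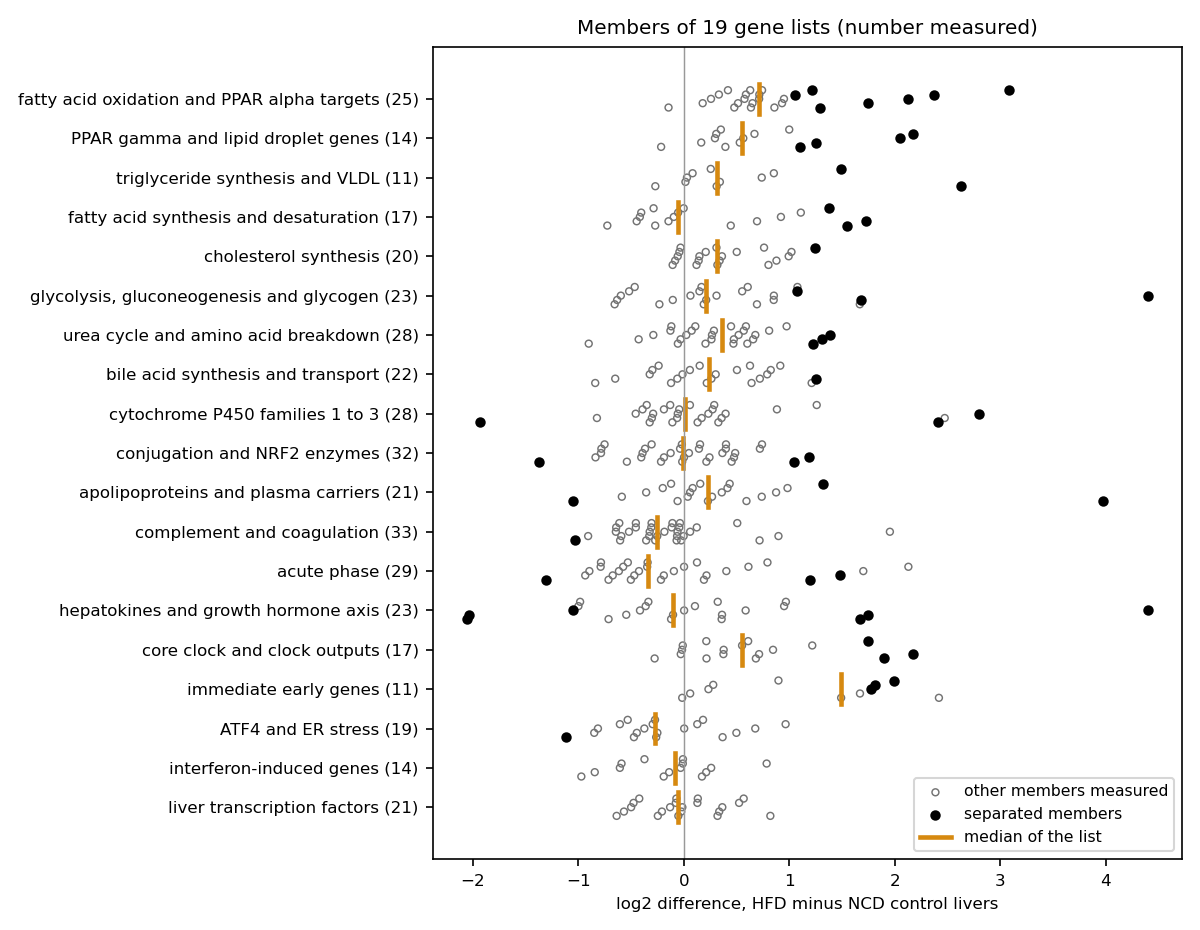
Log2 difference, HFD minus NCD control livers, of each measured member of 19 gene lists, with filled points for separated members and orange bars at list medians. Medians run from -0.34 for acute phase genes to 1.49 for immediate early genes, and all but 1 of the 7 uppermost lists have a positive median.

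Drug metabolism differed in single genes, with family medians near 0. Cyp3a11, the main CYP3A enzyme of mouse liver and a target of PXR, at chr5:145854426-145879964, minus strand, had 280.4, 211, 177, 279 and 219.6 in HFD livers, against 753, 747, 854 and 1250.2 in NCD livers. NCD livers were 3.86 times higher on average, with no HFD liver near their range. Cyp2b10, a target of CAR, had 2.42, 6.75, 12.7, 11.6 and 22.9 in HFD livers, against 0.725, 0.622, 0 and 0.636 in NCD livers, so it was listed at 0 or 1 deposited unit in every NCD liver. Cyp2c38 had 15.1 ± 7.81 in HFD livers and 1.81 ± 0.647 in NCD livers, but Cyp2c genes are near-identical copies and this split is uncertain. Over 28 measured cytochromes P450 of families 1 to 3, 2 were separated higher and 1 lower (neither Cyp2b10 nor Cyp2c38 reached a mean of 10 over both diets) with a median of 0.01. Cyp2e1, the ethanol- and ketone-oxidizing enzyme, lay above the NCD range at 2980.3 ± 327 in HFD livers and 1619.9 ± 234 in NCD livers. Conjugation enzymes gave 2 higher and 1 lower of 32: Ces2a, a carboxylesterase, had 42.3, 54, 45.8, 49.6 and 52.5 in HFD livers, against 115, 124, 125 and 151 in NCD livers, and Sult2a8, a sulfotransferase, 168 ± 23 in HFD livers and 72.8 ± 8 in NCD livers. Cyp17a1, the steroid 17-alpha-hydroxylase, had 27.8, 10.1, 8.78, 16.5 and 9.83 in HFD livers, against 1.45, 1.87, 1.94 and 0.636 in NCD livers. Csad, which makes taurine from cysteine, had 29, 27, 6.83, 23.1 and 13.1 in HFD livers, against 43.5, 65.9, 90.6 and 48.3 in NCD livers. Aldh3a2, a fatty aldehyde dehydrogenase and the 1 separated gene of 11 pericentral genes, had 154 ± 29.8 in HFD livers and 48.2 ± 7.77 in NCD livers.

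Many plasma proteins of complement and coagulation were lower in HFD livers, mostly at sizes under the limit. Of 33 measured genes of complement and coagulation, 16 lay below and 3 above the NCD range, 1 was separated (lower), and the median was -0.25. Over all genes, 14.5% lay below and 15.6% above that range, and 1.79% were separated lower. C3, the central complement component, had 816, 889, 981, 881 and 962 in HFD livers, against 1408, 1454, 1335 and 1269 in NCD livers, without overlap (-0.59). C8b, of the membrane attack complex, had 37.5, 82.7, 83.9, 103 and 146 in HFD livers, against 147, 161, 196 and 181 in NCD livers. HFD Ctrl-6 and NCD Ctrl-2 nearly touched, and without HFD Ctrl-1, the lowest, the difference was -0.75. It was -0.96 without NCD Ctrl-4 and just short of the size limit without NCD Ctrl-5, and without HFD Ctrl-2 the diets overlapped after rescaling. Acute phase genes had 2 higher and 1 lower of 29 and a median of -0.34, and at any size 6 lay below and 3 above the NCD range. Hpx, hemopexin, had 914, 930.0, 1018, 1069.7 and 875 in HFD livers, against 1386, 1723, 1555 and 1258 in NCD livers, and Fga, fibrinogen alpha, 942, 1127, 1175, 1364 and 1490.0 in HFD livers, against 1603, 1650.0, 2401 and 1637 in NCD livers; both lay below the NCD range. Saa1, serum amyloid A, overlapped, with 12.1, 40.5, 37.1, 52.9 and 42.6 in HFD livers, against 40.6, 47.9, 91.3 and 26.7 in NCD livers. Saa3 was separated lower (-1.31), a call that ended just short of the size limit without NCD Ctrl-2. The serpins Serpina3n, with 124, 164, 216, 180.2 and 159 in HFD livers, against 79.1, 65.3, 72.5 and 71.2 in NCD livers, and Serpina3m (1.49) went the other way, and Serpina3m shares sequence with neighbouring copies.

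Male-biased genes and major urinary proteins, pheromone carriers made by male liver, had 4 separated higher and 1 lower of 30, with a median of 0.65. At any size, too, 4 of the 30 lay above the NCD range and 1 below it. Over all genes, 15.6% lay above and 14.5% below that range, and 3.12% and 1.79% were separated. Mup17 had 777, 4561, 2763, 3989 and 4314 in HFD livers, against 199, 348, 221 and 467 in NCD livers, Mup18 differed by 1.62 and Mup22 by 1.05, or 0.98 without NCD Ctrl-4. Mup22 overlapped on within-library ranks, at mean percentiles of 99.95 in HFD and 99.94 in NCD livers, where ranks have little room to differ. Under upper quartile scaling Mup22 was not separated. HFD Ctrl-1 was the lowest HFD liver for Mup17 by a wide margin. These genes are near-identical copies, so the single values are uncertain. Cyp4a12a, an arachidonic acid hydroxylase that testosterone induces, had 119.7, 135, 95.6, 261 and 270.5 in HFD livers, against 45.7, 29.8, 59.5 and 83.9 in NCD livers. Hsd3b5, a male-specific steroid enzyme, had 31.4, 105, 83.9, 41.3 and 108 in HFD livers, against 154, 116, 129 and 147 in NCD livers, with HFD Ctrl-2 and Ctrl-6 close to the lowest NCD liver. Its difference of -1.03 was -0.77 without HFD Ctrl-1, -0.86 without HFD Ctrl-5, -0.97 without NCD Ctrl-2 and -0.99 without NCD Ctrl-5.

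A minority of clock and immediate early genes was separated, in each case higher in HFD livers, and the hour of sampling is not in the labels. Of 17 measured clock genes 3 were separated higher, 0 lower, with a median of 0.55. Per1, a repressor of the core clock that glucocorticoids also induce, had 8.46, 8.44, 9.75, 14.9 and 11.5 in HFD livers, against 2.18, 3.11, 1.29 and 1.91 in NCD livers. Ciart, a clock repressor, had 8.46, 10.1, 12.7, 18.2 and 9.83 in HFD livers, against 2.18, 2.49, 1.29 and 1.27 in NCD livers, and Noct, a rhythmic phosphatase, 13.3, 16.9, 15.6, 16.5 and 8.2 in HFD livers, against 2.9, 4.35, 3.24 and 3.18 in NCD livers. In all of these the NCD livers held 2 to 7 deposited units, and the HFD livers did not overlap with them. None of the 3 reached a mean of 10 over both diets, so with that minimum no clock gene was separated. Dbp, a strongly rhythmic output, overlapped, with 36.3, 25.3, 37.1, 33.1 and 32.8 in HFD livers, against 16, 32.9, 18.8 and 15.9 in NCD livers.

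Promoters of Ciart and Per1 are shown because they held the E-box CACGTG, which is its own reverse complement and is the element of CLOCK and BMAL1. They span chr3:95882179-95882478 on the minus strand and chr11:69098699-69098998 on the plus strand (RefSeq, GRCm38.p6), each from 250 bases before to 50 after a start, and Per1 is listed with 2 starts. Capitals mark the matches, which begin 116, 58 and 44 bases before the start in Ciart and 166 bases before it in Per1.
Ciart: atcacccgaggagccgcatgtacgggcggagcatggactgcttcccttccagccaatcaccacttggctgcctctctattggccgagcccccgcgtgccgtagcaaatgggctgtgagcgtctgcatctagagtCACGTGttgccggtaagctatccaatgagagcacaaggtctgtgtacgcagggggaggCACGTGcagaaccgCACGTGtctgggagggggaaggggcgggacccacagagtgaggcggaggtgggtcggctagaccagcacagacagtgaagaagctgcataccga
Per1: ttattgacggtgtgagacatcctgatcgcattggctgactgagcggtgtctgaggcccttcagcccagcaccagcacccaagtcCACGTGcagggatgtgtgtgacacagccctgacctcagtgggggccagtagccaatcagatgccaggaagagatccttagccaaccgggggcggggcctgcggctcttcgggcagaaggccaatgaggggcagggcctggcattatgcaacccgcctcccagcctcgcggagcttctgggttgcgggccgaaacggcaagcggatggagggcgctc
The E-box was in 11.6% of the 112 promoters of genes separated higher, 1.67% of the 60 of genes separated lower and 12.6% of all 5310, so its share among genes separated higher was near that of all genes. The NF-Y box CCAAT was in 46.4%, 40.0% and 43.4%, and the sterol element TCACNCCAC in 0.893%, 5.0% and 1.62%. The D-box TTATGTAA was in 1 of 112, 2 of 60 and 44 of 5310. All motifs were searched on both strands.

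Immediate early genes, switched on within minutes of a stimulus, gave 3 separated higher of 11 measured (23 listed) and a median of 1.49. Jun, Btg2, Egr1 and Fos had NCD means under 3 and passed the minimum mean through the HFD livers. With a minimum mean of 10, Jun was no longer measured. Without HFD Ctrl-5 and Ctrl-6 the list median was 0.25 over the members still measured, which no longer included Fos. Jun, a subunit of AP-1, had 7.25, 13.5, 10.7, 19.8 and 8.2 in HFD livers, against 2.18, 3.11, 1.94 and 1.27 in NCD livers, and Zfp36, an mRNA decay factor, 16.9, 37.1, 23.4, 67.8 and 22.9 in HFD livers, against 10.2, 9.33, 6.47 and 5.72 in NCD livers. Btg2, an antiproliferative factor, had 3.63, 11.8, 5.85, 67.8 and 14.8 in HFD livers, against 2.9, 3.11, 2.59 and 3.18 in NCD livers, and without HFD Ctrl-5 and Ctrl-6 its difference was 0.94. Egr1, a zinc-finger factor, had 1.21, 6.75, 1.95, 152 and 99.99 in HFD livers, against 6.53, 1.24, 0.647 and 1.27 in NCD livers, and Fos, the partner of Jun, 0, 1.69, 2.93, 47.9 and 3.28 in HFD livers, against 0.725, 0.622, 0.647 and 0 in NCD livers. Mt1 and Mt2, metallothioneins that zinc, glucocorticoids and inflammation induce, repeated the pattern: Mt1 had 4.83, 8.44, 7.8, 109 and 90.2 in HFD livers, against 5.08, 2.49, 7.12 and 2.54 in NCD livers, and Mt2 2.42, 1.69, 0.975, 46.3 and 77 in HFD livers, against 2.18, 0.622, 4.53 and 1.27 in NCD livers. HFD Ctrl-5 and Ctrl-6 were high in Egr1, Mt1 and Mt2 and Ctrl-5 alone in Fos, while the other HFD livers lay in or near the NCD range. Without those 2 livers, Per1 still differed by 1.75, Ciart by 2.10, Jun by 1.93 and Zfp36 by 1.58. The fatty acid oxidation list then had a median of 0.75 over its members still measured.

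**Figure D4:**
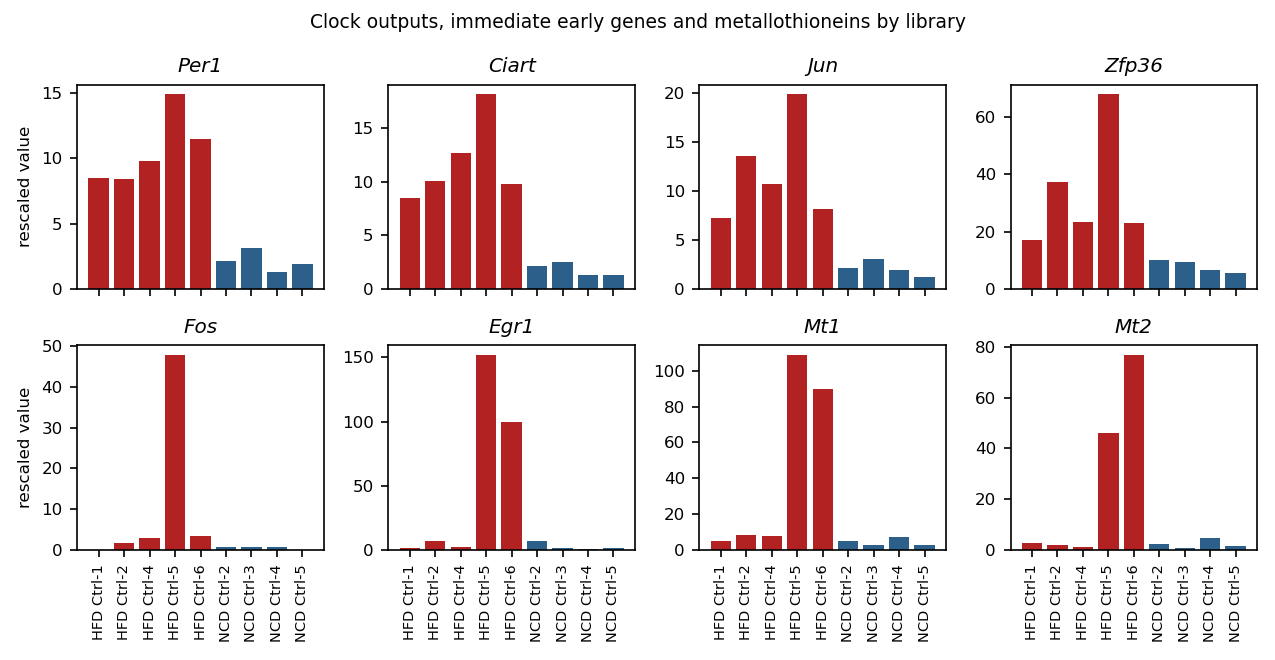
Rescaled values of 8 genes in each control liver, HFD in red left of NCD in blue. Per1, Ciart, Jun and Zfp36 are above the NCD range in all 5 HFD livers, while Fos, Egr1, Mt1 and Mt2 are high in HFD Ctrl-5 or in Ctrl-5 and Ctrl-6.

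The list of ATF4 and endoplasmic reticulum (ER) stress genes gave 0 higher and 1 lower of 19 measured. The separated member, the ER chaperone Hyou1, had 36.3, 50.6, 56.6, 56.2 and 54.1 in HFD livers, against 88.5, 162, 119.7 and 84.5 in NCD livers. Hyou1 differed by -0.93 without NCD Ctrl-3. Stt3a, the catalytic subunit of oligosaccharyltransferase, had 8.46, 11.8, 8.78, 11.6 and 9.83 in HFD livers, against 29, 38.5, 27.8 and 23.5 in NCD livers. Its NCD livers were all higher, without overlap. Interferon-induced genes (14 measured), NF-kB targets and chemokines (6) and liver transcription factors (21) had 0 separated in either direction. Foxa2 overlapped, with 6.04, 6.75, 3.9, 11.6 and 11.5 in HFD livers, against 7.98, 13.1, 12.9 and 12.7 in NCD livers. Falcor, its neighbour at chr2:147944740-148040203, minus strand (GENCODE vM21, GRCm38), had 31.4, 28.7, 23.4, 44.6 and 39.3 in HFD livers, against 50.8, 71.5, 75.7 and 85.8 in NCD livers. Every HFD liver lay under every NCD liver, and the difference of -1.07 was -0.95 without HFD Ctrl-4 and -0.97 without NCD Ctrl-5. In knockout livers Falcor did not reach the minimum mean of 3.

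Markers of other cell types were compared as whole lists. In bulk tissue, fewer cells of a type and less RNA per cell cannot be told apart. Hepatocyte markers were present in all 9 livers, with 1 separated higher (Tat) and 1 lower (Cyp3a11) of 8. Of 10 Kupffer cell and macrophage markers 0 were separated and the median was -0.40, their summed value being 69.2 to 167 in HFD livers and 128 to 273 in NCD livers. Clec4f, found on Kupffer cells, had 13.3, 11.8, 22.4, 13.2 and 13.1 in HFD livers, against 43.5, 24.2, 21.4 and 25.4 in NCD livers. HFD Ctrl-4 reached the NCD range and the other 4 HFD livers lay under it.

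Fabp5, a fatty acid binding protein of lipid-associated macrophages at chr3:10012548-10016607, plus strand, had 8.46, 1.69, 1.95, 4.96 and 3.28 in HFD livers, against 13.1, 22.4, 80.3 and 17.2 in NCD livers. NCD Ctrl-4 was far above the other NCD livers, yet all were above the highest HFD liver. Of 8 markers of those macrophages 3 were measured and 2 separated lower, the other being Cd9, a tetraspanin (-1.25, and -0.83 without HFD Ctrl-6). The third, Spp1, barely differed (-0.001). Trem2, Gpnmb and Itgax did not reach the minimum mean, so the list says little about these cells. The list's summed value was 13.7 to 37.5 in HFD livers and 36.2 to 106 in NCD livers. Stellate cell and fibroblast markers (5) had 0 separated, 2 above the NCD range and a median of 0.31, with summed values of 72.6 to 108 in HFD livers and 59.7 to 78.3 in NCD livers. Endothelial markers (7) had 0 separated, with Kdr, a VEGF receptor, under the NCD range (-0.61). Igkc, the immunoglobulin kappa constant region and the measured marker of plasma cells, had 18.1, 23.6, 8.78, 26.5 and 4.92 in HFD livers, against 66.7, 39.8, 55 and 37.5 in NCD livers, and Hbb-bs, a beta globin, 205, 246, 342, 425 and 316 in HFD livers, against 902, 545, 652 and 528 in NCD livers. Hbb-bs differed by -1.11, by -0.97 without HFD Ctrl-1 and by -0.94 without NCD Ctrl-2. Summed erythroid markers were 528 to 1055 in HFD livers and 1134 to 1941 in NCD livers. No marker of T and NK cells or of neutrophils reached the minimum mean. Their part in the results above was not tested.

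Many of the largest differences were in mitochondrially encoded, ribosomal and small RNAs. All 15 mitochondrially encoded RNAs were separated, 13 higher and 2 lower. Mitochondrial ribosomal RNA mt-Rnr2 had 5584, 5885, 5069, 7658 and 5481 in HFD livers, against 138, 95.1, 131 and 182 in NCD livers, and mt-Rnr1 549.5 ± 125 in HFD livers and 21.4 ± 5.72 in NCD livers. The messenger mt-Atp8, for a subunit of ATP synthase, had 4256, 5126, 4974, 4953 and 4354 in HFD livers, against 46.4, 29.8, 50.5 and 142 in NCD livers. The gap was smaller for mt-Co1, of cytochrome oxidase, at 11171 ± 675 in HFD livers and 4194 ± 757 in NCD livers. On within-library ranks mt-Co1 overlapped, at mean percentiles of 99.91 in HFD and 99.88 in NCD livers, where ranks have little room to differ. Subunits of complex I followed, mt-Nd4 at 2714 ± 151 in HFD livers and 236 ± 74.4 in NCD livers, mt-Nd2 at 3.36 and mt-Nd4l at 3.14 (log2). Against them, mt-Co2 had 99.1, 92.8, 22.4, 3.31 and 26.2 in HFD livers, against 277, 213, 212 and 299 in NCD livers, and mt-Nd6, which is encoded on the other strand of the mitochondrial genome than the rest of the messengers, 503, 646, 612, 694 and 447 in HFD livers, against 2747, 2779.6, 1825 and 1183 in NCD livers. All come from the same few polycistronic transcripts, yet their differences ran from -3.03 to 6.36. Of 34 nuclear-encoded respiratory chain genes, 10 lay above and 4 below the NCD range, beside 15.6% and 14.5% of all genes. In that list 1 was separated (higher), and the median was 0.16. The separated member was Cox5b, of cytochrome oxidase, at 25 ± 1.79 in HFD livers and 10.8 ± 1.29 in NCD livers. Cox7c, a small subunit that is not on that list, was separated lower with 149.9, 135, 144, 139 and 136 in HFD livers, against 358, 451, 364 and 327 in NCD livers.

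Ribosomal and small RNAs showed the same kind of gap. Rn18s-rs5, a fragment annotated to ribosomal RNA, had 4334, 6802, 6961, 8203 and 7442 in HFD livers, against 909, 1021, 1113 and 743 in NCD livers, although libraries were depleted of ribosomal RNA. Mir6236, annotated as a microRNA locus, had 8987, 13158, 13816, 19512 and 23009 in HFD livers, against 1632, 1451, 1278 and 1656 in NCD livers. Snord15b, a small nucleolar RNA, had 14.5, 21.9, 11.7, 51.3 and 6.56 in HFD livers, against 1.45, 0, 0 and 0.636 in NCD livers, at 0 to 2 deposited units in NCD livers. Rnu12, a spliceosomal RNA, had 94.3, 123, 155, 213 and 70.5 in HFD livers, against 5.08, 0, 40.1 and 24.2 in NCD livers, and Mir192, the locus of a liver microRNA, 2.42, 3.38, 1.95, 0 and 0 in HFD livers, against 24.7, 13.1, 14.2 and 22.2 in NCD livers. Of 194 small noncoding RNAs, 13.9% were separated higher and 3.61% lower, and of 213 pseudogenes 11.7% and 9.39%, beside 2.10% and 0.981% of protein coding genes. Among nuclear RNAs, Neat1, the scaffold of paraspeckles, had 56.8, 43.9, 34.1, 77.7 and 57.4 in HFD livers, against 157, 165, 113 and 157 in NCD livers. The histone transcripts H4c14, at 3.83 ± 0.733 in HFD livers and 15.7 ± 1.2 in NCD livers, and H2ac18, at 28.6 ± 8.7 in HFD livers and 77.6 ± 13.4 in NCD livers, were separated lower. The list of replication-dependent histones, which holds neither, had 0 of 4 measured members separated and a median of 0.12. Separated lower too was Aprt, of adenine salvage, at 9.81 ± 1.38 in HFD livers and 26.6 ± 4.68 in NCD livers. Whether the differences of these classes share a source with those of other messenger RNAs was not tested.

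The same contrast in Falcor knockout livers separated 142 genes higher (1.90%) and 94 lower (1.26%) of 7482 measured. These livers stand in the same pair of tables and share their differences in composition, but no library. Of the 230 genes separated higher in control livers, 70 were so in knockout livers, 30.4% of the first list and 49.3% of the second. Of the 132 separated lower, 24 were, 18.2% of the first and 25.5% of the second, and 0 went the opposite way past both limits. Where a gene was measured in both genotypes, the sign was shared by 216 of 221 separated higher and 114 of 120 separated lower. The share of shared signs over all genes was not computed. The median difference was 1.55 in control and 0.89 in knockout livers for the first set, and -1.29 and -0.72 for the second. Both sets were chosen by their size in control livers, and that choice alone favours larger medians there. Whether the diets differ less in knockout livers was not tested.

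**Figure D5:**
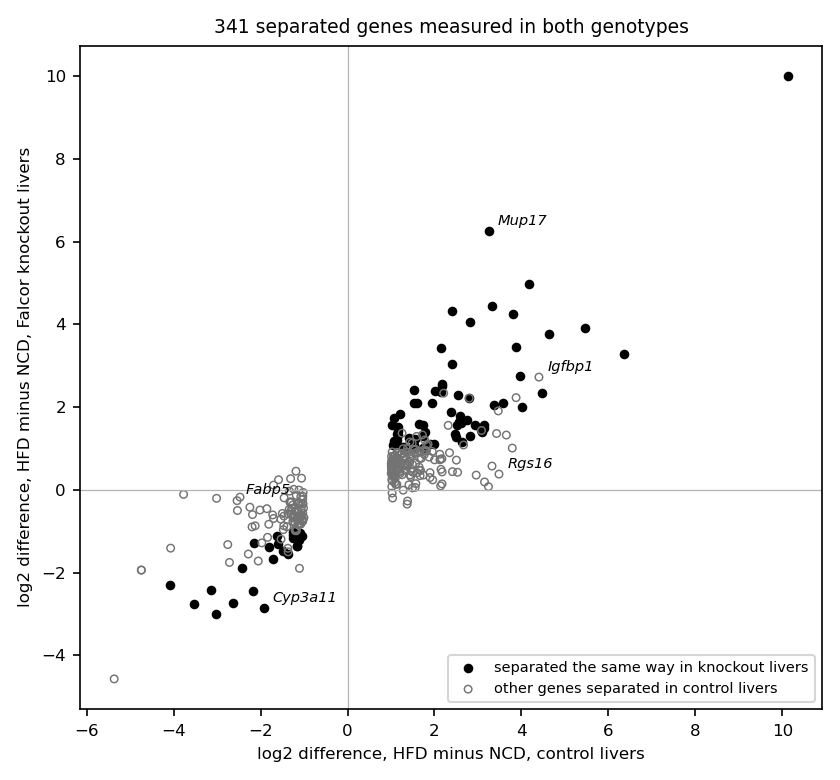
Log2 difference, HFD minus NCD, in control livers (x) and Falcor knockout livers (y) for the 341 genes separated in control livers and measured in both. Filled points were separated the same way in knockout livers, and most points lie nearer to 0 on the y axis than on the x axis. The genes were chosen by their size in control livers, which alone favours larger differences on the x axis.

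Among named genes, Apoa4 (107 ± 85.7 in HFD and 11.6 ± 3.69 in NCD knockout livers), Mfsd2a (25.1 ± 10.6 in HFD and 5.24 ± 1.59 in NCD knockout livers), Lpin1, Fabp1, Fads2, Fabp2, Vnn1 and Msmo1 were also separated higher in knockout livers, and Cyp3a11 (188 ± 81.2 in HFD and 1193 ± 143 in NCD knockout livers) and Ces2a lower. Mup17, Mup22, Jun, Btg2, Serpina3n, Rn18s-rs5, Mir6236, mt-Atp8, mt-Rnr1, mt-Rnr2, mt-Nd2, mt-Nd4 and mt-Nd4l were separated higher there too. Igkc, Neat1, H4c14, Mir192 and mt-Co2 were separated lower in both genotypes. The genes that follow were not separated in knockout livers. Igfbp1 overlapped, at 85.2 ± 147 in HFD and 4.23 ± 2.52 in NCD knockout livers. Cd36 had 10.1 ± 5.44 in HFD and 8.95 ± 3.98 in NCD knockout livers, Lpin2 59.6 ± 16.7 in HFD and 56.5 ± 9.26 in NCD knockout livers, Rgs16 20.9 ± 15.4 in HFD and 14.7 ± 11 in NCD knockout livers and Per1 9.11 ± 3.8 in HFD and 6.83 ± 1.36 in NCD knockout livers. Fabp5 differed by -0.26 in knockout livers and Stt3a by -0.19. The fatty acid oxidation list had a median of 0.23 and the acute phase list 0.82, against 0.71 and -0.34 in control livers. Several other lists were nearer 0 or opposite in sign in knockout livers. Their medians were 0.006 for complement and coagulation, -0.15 for clock genes, 0.10 for lipid droplet genes and 0.006 for triglyceride synthesis. Urea cycle genes had 0.04, and genes of glycolysis and gluconeogenesis -0.10. Further from 0 were cholesterol synthesis (0.39), male-biased genes (0.92) and immediate early genes (0.66). Whether these differences between genotypes exceed the spread between libraries was not tested here.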

How the data were processed

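The liver tables hold deposited values treated here as a score: whole numbers per gene whose columns sum to 918867 to 954012 in HFD and 855729 to 872375 in NCD control columns, and whose unit no source used here gives. Kallisto, DESeq2 and build mm10 appear in the submitters' processing notes, without role or version. Per the labels' protocols, libraries were stranded and ribosomal RNA was removed. A count model was not used, because no source says that the deposited scores are read counts, and sequencing depth is unknown.

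The tables shared 55774 genes. The 3 genes with identical, very high values in every library were removed. Each of the 9 control libraries was divided by its median ratio to the geometric mean of the libraries over 7444 genes, and the 10 knockout libraries likewise among themselves. Genes measured had a mean of both diets of at least 3. Separation needed no overlap and a difference of at least 1 in mean log2(value + 1), a scale that understates differences of low genes. No test was run across tables. The separation step was tested on simulated data. Python 3.11.15, pandas 2.3.3 and numpy 2.4.6 were used. Gene positions come from GENCODE vM21, and 7117 of 7371 symbols matched it.

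Members and gene lists were chosen with earlier results of these data known. Named genes are list members and, among genes separated on values and ranks with a mean of at least 10 and a symbol of no predicted gene, clone or pseudogene, the 14 largest differences in each direction. Further genes that enter this ranking when mitochondrially encoded and small RNAs are left out (such as Cyp17a1, Fabp2, Lipg, Rn18s-rs5 and Aprt) were chosen after their values were seen. A few list members are not reported here. Other scalings, pseudocounts, filters, size limits and left-out libraries were tried as alternatives.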

Additional observations from a re-analysis of the deposited data

Results flagged for a closer look

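Within a diet, 1 library stood far from the others (a gap to its nearest neighbour above Dixon's 95% limit) in 23 of 244 groups of named genes. For normally distributed values chance alone gives this in about 1 in 20 groups. Some groups here hold only a few deposited units, often equal, so that rate does not apply to them. No explanation was tested. Among HFD livers, Ctrl-1 was high in Scd1 (2598, others 269 to 693), Fasn (303, others 36.1 to 95.9) and Mttp (66.5, others 60.5 to 61.2). HFD Ctrl-5 was high in Fos (47.9, others 0 to 3.28), Btg2 (67.8, others 3.63 to 14.8) and Cox5b (28.1, others 23.6 to 24.6) and low in the histone H2ac18 (13.2, others 30.4 to 34.4). HFD Ctrl-6 was low in Ppara (49.2, others 67.5 to 73.1), mt-Co1 (10009, others 11336 to 11776) and Cd9 (0, others 2.93 to 3.63). HFD Ctrl-4 was high in Clec4f (22.4, others 11.8 to 13.3).

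Among NCD livers, Ctrl-4 was high in Fabp5 (80.3, others 13.1 to 22.4) and Fga (2401, others 1603 to 1650.0) and low in Neat1 (113, others 157 to 165) and Cyp2b10 (0, others 0.622 to 0.725). NCD Ctrl-2 was high in Egr1 (6.53, others 0.647 to 1.27) and Saa3 (14.5, others 5.08 to 6.47) and low in Foxa2 (7.98, others 12.7 to 13.1). NCD Ctrl-5 was high in Cox5b (12.7, others 9.95 to 10.4) and Cfd (3.81, others 0 to 0.647). It was also high in Cidec (1.91, others 0.622 to 0.725) and listed at 0 in Fos (0, others 0.622 to 0.725), differences of 1 or 2 deposited units. NCD Ctrl-3 was high in Dbp (32.9, others 15.9 to 18.8).

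The 3 genes set aside carried at least 22.4% of every HFD control column, above the 6.50 to 12.9% of NCD control columns. They are outside every comparison made here.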

How the results depend on the processing

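Of the main counts, 230 genes higher and 132 lower in HFD livers, the split followed the scaling. Dividing by the sum of shared genes, which put the median of all genes at -0.45, gave 134 and 814; no rescaling (median -0.97) gave 47 and 3363; keeping the 3 identical genes and dividing by the sum (median -1.09) gave 50 and 4569. The upper quartile gave 184 and 179. A pseudocount of 5 gave 145 and 60, a minimum mean of 10 gave 67 lower, and no minimum 293 lower. Size limits of 0.58 and 2 gave 563 and 448, and 74 and 31. Among protein coding genes alone, an alternative chosen after seeing the data, there were 135 and 63. Leaving out 1 library gave 221 to 278 higher and 136 to 176 lower. Without HFD Ctrl-5 and Ctrl-6, also chosen after seeing the data, there were 270 and 183. In knockout livers without HFD KO-6, likewise added, there were 168 and 110. Of 83 named separated genes, 77 passed both limits under upper quartile scaling, 61 under the sum and 43 with no rescaling. On ranks, 79 did not overlap. The named genes lost under the sum, or with no rescaling, were all higher in HFD livers. Those lost under the sum included Cpt1a, Fabp1, Elovl2, Elovl5, Abcb4, Tat, Got1, Gpt2, Pfkfb1 and Apoc2. The cause was not tested. No difference of a named separated gene, taken relative to the median of all genes, changed sign where the gene was measured. Named genes that were not separated and list medians were not checked as a whole for a change of sign, and some changed on ranks. Apoa1 (0.23 in log2) stood at mean percentiles of 99.70 in HFD and 99.83 in NCD livers, and Ttr (0.16) at 99.64 and 99.79. On ranks the median of the apolipoproteins and plasma carriers, 0.23 in log2, was -0.08 percentile points. Hepatocyte markers (0.19), cytochromes P450 (0.01) and cholesterol regulation, uptake and efflux (0.05) had -0.14, -0.21 and -0.40. No paired analysis was possible because no test was made across the tables and the columns' numbers do not tie livers of different diets. Low genes rest on few deposited units, and 1 unit weighs more after rescaling in HFD than in NCD columns, which limits their precision; the depth is unknown.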
